A study of Mus musculus with 6 samples.

Results

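The genes described are the matrix metalloproteinases (MMPs), the ADAM and ADAMTS metalloproteinases, the ADAMTS-like proteins and the tissue inhibitors of metalloproteinases (TIMPs). They were taken by gene symbol from array rows annotated with exactly 1 symbol, and a gene with several rows was represented by the row of highest mean over the 6 arrays. This gave 83 of the 19938 genes measured: 22 MMPs, 34 ADAMs, 18 ADAMTSs, 5 ADAMTS-like genes and 4 TIMPs. RNA came from hearts of male FVB mice, 1 heart per Affymetrix Mouse Gene 1.0 ST array, in 3 A2a-R transgenic mice that over-expressed the adenosine A2a receptor and 3 wild-type littermates. The transgene was heart-specific and inducible; the sources used here give neither its promoter nor the time of induction. Every mouse of both groups had the aorta narrowed by surgery (transverse aortic constriction), which loads the left ventricle with pressure, at 8 weeks of age, and its heart was collected after 14 weeks. Hearts without surgery were not analysed here, and neither was the transcript of the A2a receptor itself, so the array values hold no check of the transgene.

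MMPs are zinc-dependent proteases that cut collagens, elastin and other matrix proteins, and most are secreted as inactive proforms. ADAMs sit in the cell membrane and release the outer parts of growth factors, cytokines and receptors, ADAMTSs are secreted relatives that cut proteoglycans and process procollagen, and the ADAMTS-like proteins resemble them but lack the protease domain. TIMPs block the active site of these enzymes, and the balance between both sides is known to bear on matrix turnover and dilation of the pressure-loaded heart.

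The proximal promoters of 6 of these genes are shown. They are Mmp12, the single gene that passed the test, its chromosome 9 neighbours Mmp13 and Mmp3, and Timp1, Mmp14 and Timp4. The last are 2 inhibitors and a membrane-bound protease that differed without overlap between the groups but did not pass. They are examples only, since 22 of the 83 genes (26.5%) and 20.2% of all genes had groups without overlap. Each window runs from 250 bases before to 50 bases after a RefSeq transcript start, 5′ to 3′ on the strand of the gene, in build GRCm38.p6. Mmp12 has 2 annotated starts, at chr9:7344147-7344446 and chr9:7347124-7347423 (plus strand). The windows of Mmp13 and Mmp3 are chr9:7272264-7272563 and chr9:7445572-7445871 (plus strand). Those of Timp1, Mmp14 and Timp4 are chrX:20869916-20870215 (plus strand), chr14:54431348-54431647 (plus strand) and chr6:115252156-115252455 (minus strand). Capitals mark exact matches, on either strand, to TGANTCA (the site of AP-1 factors), AGGAAG (the PEA3 site of ETS factors), TGACG (a half-site of the cyclic AMP response element) and TATAAA (the TATA box).
Mmp12 start 1: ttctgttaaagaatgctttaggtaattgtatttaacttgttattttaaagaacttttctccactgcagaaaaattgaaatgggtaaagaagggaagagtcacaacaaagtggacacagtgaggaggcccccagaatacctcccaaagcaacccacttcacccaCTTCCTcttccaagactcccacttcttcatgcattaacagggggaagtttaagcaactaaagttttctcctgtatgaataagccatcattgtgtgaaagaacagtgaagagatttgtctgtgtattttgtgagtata
Mmp12 start 2: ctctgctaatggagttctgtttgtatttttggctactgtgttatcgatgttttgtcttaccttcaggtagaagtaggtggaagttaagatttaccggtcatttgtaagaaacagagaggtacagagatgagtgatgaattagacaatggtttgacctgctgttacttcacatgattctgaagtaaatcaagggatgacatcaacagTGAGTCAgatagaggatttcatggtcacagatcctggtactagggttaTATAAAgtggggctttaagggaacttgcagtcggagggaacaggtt
Mmp13: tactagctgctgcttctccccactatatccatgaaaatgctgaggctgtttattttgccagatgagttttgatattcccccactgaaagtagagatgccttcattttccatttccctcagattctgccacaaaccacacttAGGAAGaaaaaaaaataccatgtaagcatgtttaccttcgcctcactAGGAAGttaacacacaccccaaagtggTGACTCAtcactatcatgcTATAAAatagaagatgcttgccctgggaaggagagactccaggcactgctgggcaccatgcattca
Mmp3: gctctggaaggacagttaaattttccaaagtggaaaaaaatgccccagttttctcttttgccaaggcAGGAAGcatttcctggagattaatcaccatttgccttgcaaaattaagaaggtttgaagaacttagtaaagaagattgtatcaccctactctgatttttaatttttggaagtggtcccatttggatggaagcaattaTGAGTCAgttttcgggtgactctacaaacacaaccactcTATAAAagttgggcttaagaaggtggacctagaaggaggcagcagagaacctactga
Timp1: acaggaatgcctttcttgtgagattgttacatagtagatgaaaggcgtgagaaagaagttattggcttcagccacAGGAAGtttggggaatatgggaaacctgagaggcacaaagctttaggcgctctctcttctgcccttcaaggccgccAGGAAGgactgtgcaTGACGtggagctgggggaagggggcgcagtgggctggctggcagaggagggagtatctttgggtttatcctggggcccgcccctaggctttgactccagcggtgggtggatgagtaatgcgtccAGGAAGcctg
Mmp14: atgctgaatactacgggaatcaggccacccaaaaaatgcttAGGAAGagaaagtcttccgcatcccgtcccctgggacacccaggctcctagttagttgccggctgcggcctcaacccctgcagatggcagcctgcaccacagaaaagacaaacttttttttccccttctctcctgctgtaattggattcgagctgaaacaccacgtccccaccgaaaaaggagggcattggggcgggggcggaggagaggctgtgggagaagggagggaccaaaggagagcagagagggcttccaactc
Timp4: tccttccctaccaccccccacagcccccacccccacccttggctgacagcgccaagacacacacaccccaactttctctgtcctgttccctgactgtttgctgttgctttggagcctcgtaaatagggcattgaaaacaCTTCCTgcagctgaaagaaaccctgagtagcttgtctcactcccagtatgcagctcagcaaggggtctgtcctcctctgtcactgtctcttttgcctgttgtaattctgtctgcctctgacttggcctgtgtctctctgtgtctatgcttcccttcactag

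The second Mmp12 start, Mmp13 and Mmp3 each held 1 AP-1 match, beginning at positions -44, -35 and -46 from the start, and 1 TATA match. The TATA matches began at positions 5, -16 and -7, so that of the second Mmp12 start lay after the annotated start. Mmp13 also held 2 PEA3 matches and Mmp3 1. The first Mmp12 start held 1 PEA3 match and none of the other letters, and the same was true of Mmp14 and Timp4. Timp1 held 3 PEA3 matches and the 1 cyclic AMP half-site of the set, at position -84. No 2 of the marked matches overlapped. Of all 32851 promoter windows of this length, 7.81% held the AP-1 letters, 35.4% the PEA3 letters, 20.8% the half-site and 13.6% the TATA letters. Windows were at hand for 52 of the 83 genes, 57 windows in all, of which 13 held the AP-1 letters, 22 the PEA3 letters, 7 the half-site and 16 the TATA letters. A match describes the letters of the window and is no evidence of a bound factor.

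Across the 83 genes, Mmp12 rose in the transgenic hearts and the other 82 did not pass the test. The test was limma on the deposited log2 values, transgenic minus wild type, with Benjamini-Hochberg adjustment over all 21789 rows with 1 symbol and a threshold of 0.05. Of all genes, taken the same way with 1 row each, 0.993% passed, made up of 0.547% higher and 0.446% lower. So 1 of 83 (1.2%) is near the background share. At an unadjusted p below 0.05 there were 22 genes, 13 higher and 9 lower, where the background is 14.6% of all genes, 6.32% higher and 8.26% lower. The 3 transgenic values lay entirely above or below the 3 wild-type values in 22 genes too, again 13 above and 9 below, against 20.2% of all genes, 7.79% above and 12.4% below. Of these 22 genes, 20 also had an unadjusted p below 0.05. The median log2 difference of the 83 genes was 0.01 and that of all genes -0.01, and the median size without regard to sign was 0.10 and 0.07. Because whole hearts were measured, fewer cells of a type and less RNA per cell cannot be told apart in any value below.

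**Figure D1:**
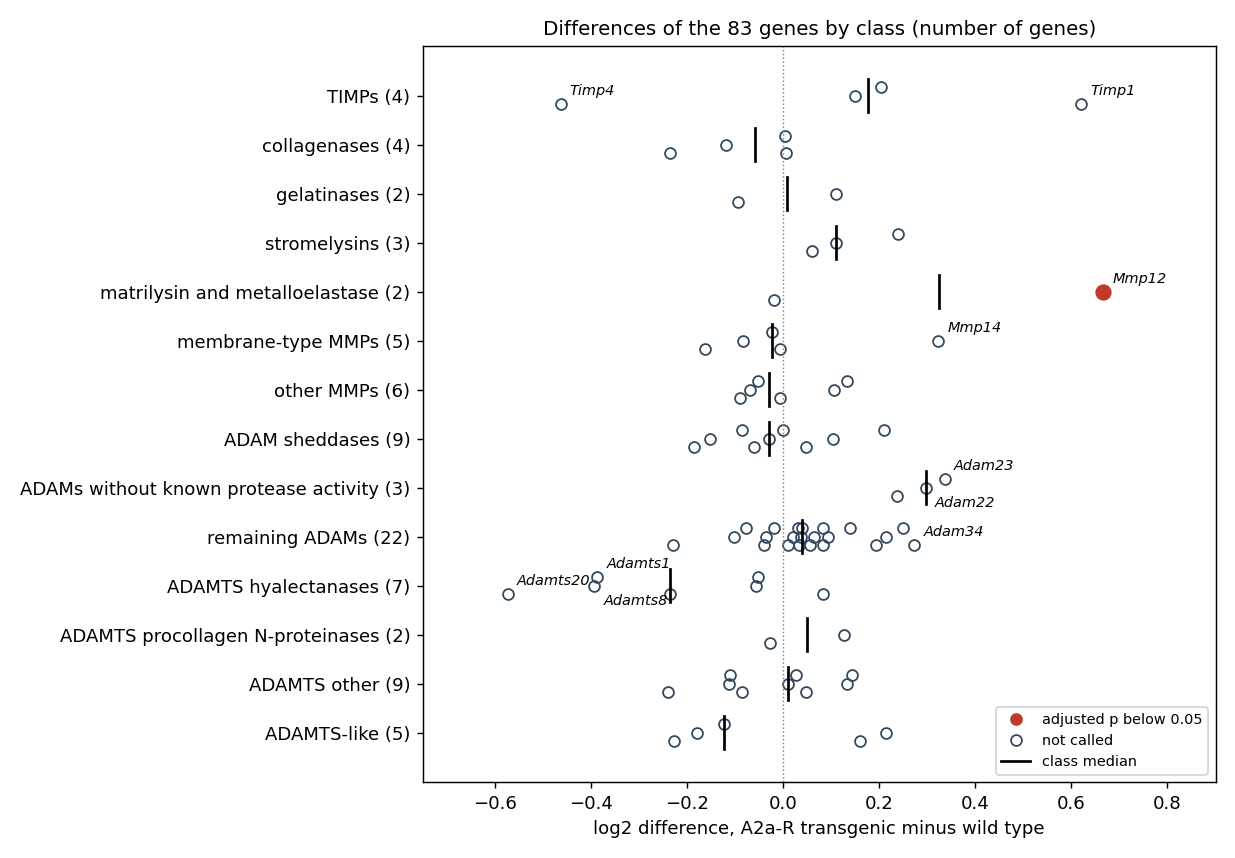
Log2 difference (A2a-R transgenic minus wild type, horizontal axis) of each of the 83 genes, 1 point per gene, in 14 classes with the number of genes in brackets; a vertical bar marks the class median and a filled red point an adjusted p below 0.05. Mmp12 is the 1 filled point, at 0.67, and the TIMPs spread from -0.46 (Timp4) to 0.62 (Timp1).

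Mmp12, the macrophage metalloelastase that cuts elastin, had log2 values of 6.25, 6.31 and 6.53 in the transgenic hearts, against 5.64, 5.81 and 5.64 in the wild-type hearts. The groups did not overlap: the lowest transgenic heart stood above the highest wild-type heart. Means were 6.36 ± 0.15 in transgenic and 5.70 ± 0.10 in wild-type hearts (SD, n = 3 each), a rise of 0.67 ± 0.09 (SE) or 1.59-fold, with a 95% interval of 0.46 to 0.87 and a limma adjusted p of 0.0147. Without wild-type replicate 1 or 3 the limma adjusted p was 0.0726 and 0.071, with log2 differences of 0.64 in both, and over the 11 alternatives that kept its row it ran from 0.00538 to 0.0726. The row is dim. RMA values carry no detection call, so the rows of 1027 olfactory receptor genes, a family scarcely expressed in heart, serve as a measure of background brightness. Their row means had a median of 4.85 and a 95th percentile of 6.32; the 6-array mean of Mmp12 was 6.03, with 6.36 in the transgenic hearts alone. Since the wild-type level lies within that background range, the fold and its interval describe the row and do not measure the size of the change in transcript. Of the 83 genes, 42 had a mean above that percentile and 41 did not.

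None of the other 21 matrix metalloproteinases passed in limma, and 4 had an unadjusted p below 0.05. Mmp8 and Mmp13 are collagenases that cut fibrillar collagen. Mmp13 had 5.80, 5.84 and 5.93 in the transgenic hearts, against 5.98, 6.11 and 6.19 in the wild-type hearts, all 3 transgenic values lying lower, and its difference of -0.24 ± 0.07 (SE) did not pass (limma adjusted p = 0.195). Mmp8, a collagenase stored in neutrophils, differed by -0.12, with a 95% interval of -0.31 to 0.07. All 4 collagenase rows lay at or below the olfactory 95th percentile, so these arrays may not show a change in them.

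The gelatinases Mmp2 and Mmp9 cut denatured collagen and basement membrane collagen. Mmp2 had 11.14, 11.13 and 11.18 in the transgenic hearts and 11.28, 10.89 and 10.95 in the wild-type hearts, where replicate 1 stood above every transgenic heart. Its difference of 0.11 had a 95% interval of -0.12 to 0.34; it was 0.23 without that heart and 0.035 without wild-type replicate 2. That of Mmp9 was -0.09, with an interval of -0.39 to 0.21. The row of Mmp9 is dim, with a mean of 6.36 close to the olfactory 95th percentile of 6.32, so a change in it may not show. Among the stromelysins, which cut proteoglycans and activate other MMPs, Mmp11 had 7.96, 7.88 and 7.82 in the transgenic hearts, against 7.72, 7.56 and 7.66 in the wild-type hearts. The groups were apart, but the difference of 0.24 ± 0.07 (SE) did not pass (limma adjusted p = 0.161). Mmp3, stromelysin-1, differed by 0.11 (95% interval -0.10 to 0.32).

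Membrane-type MMPs are anchored to the cell surface, and Mmp14 among them is known to activate the Mmp2 proform together with Timp2. Mmp14 had 8.12, 8.16 and 8.10 in the transgenic hearts, against 7.95, 7.76 and 7.70 in the wild-type hearts. Each transgenic heart was higher than each wild-type heart, and the wild-type hearts were more spread. The difference of 0.32 ± 0.07 (SE), or 1.25-fold, had a limma adjusted p of 0.105 and did not pass. With a trended and robust variance prior the limma adjusted p was 0.0405, and without the dimmest 40% of rows 0.0425, in a range of 0.0405 to 0.284 over 12 alternatives. The remaining 4 membrane-type genes were lower, by at most 0.16 in size, and none passed. Mmp19, a secreted MMP outside these groups, differed by 0.13 ± 0.05 (SE), with values of 6.47 to 6.51 in the transgenic hearts and 6.34 to 6.39 in the wild-type hearts.

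**Figure D2:**
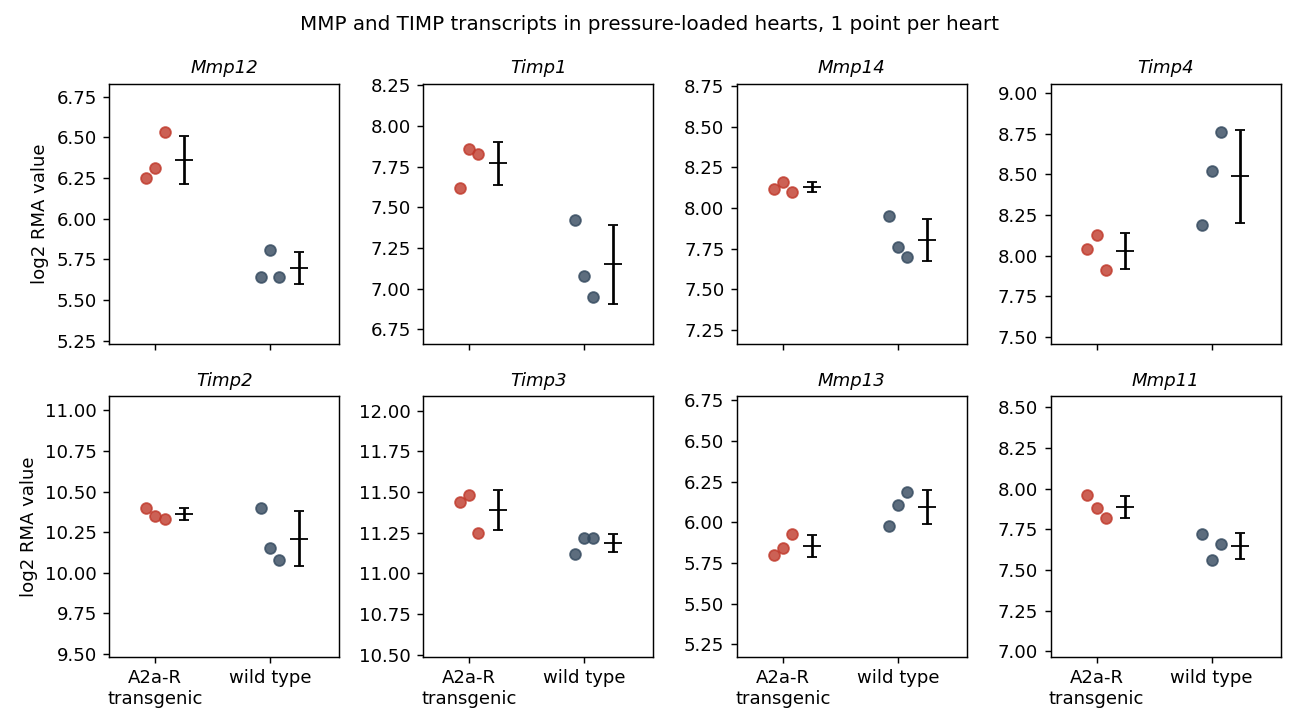
Log2 RMA values of 4 MMPs and the 4 TIMPs, 1 point per heart, with mean and SD beside the points (n = 3 hearts per group; each panel spans the same range of log2 units). All transgenic points lie above all wild-type points for Mmp12, Timp1, Mmp14, Timp3 and Mmp11 and below them for Timp4 and Mmp13, while Timp2 overlaps.

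Mmp12 lies in a run of 10 MMP genes on chromosome 9, which were described together after their values had been seen. In RefSeq order they are Mmp13, Mmp12, Mmp1b, Mmp3, Mmp1a, Mmp10, Mmp8, Mmp27, Mmp20 and Mmp7. Apart from Mmp12, these neighbours differed by -0.24 (Mmp13) to 0.11 (Mmp3), with 4 higher, 5 lower and a median of -0.01, and 0 of the 9 passed in limma (1, Mmp13, at an unadjusted p below 0.05). Mmp10 was the 1 gene of the run above the olfactory 95th percentile, so a change in the other 8 neighbours may not be detectable on these arrays.

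**Figure D3:**
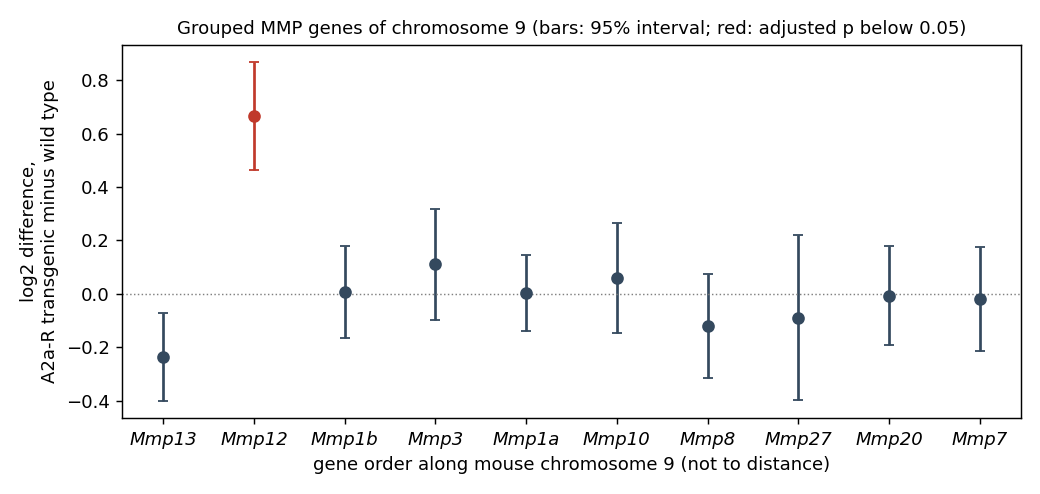
Log2 difference (A2a-R transgenic minus wild type) with its 95% interval for the 10 grouped MMP genes in their order along chromosome 9; distances are not drawn. Mmp12, in red, is at 0.67, and the other 9 genes lie between -0.24 and 0.11.

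Of the 34 ADAM genes, 0 passed in limma and 7 had an unadjusted p below 0.05. Adam10 and Adam17 are the main sheddases of Notch and of tumour necrosis factor and growth factor precursors. Adam10 had 8.81, 9.0 and 8.98 in the transgenic hearts, against 9.18, 9.06 and 9.11 in the wild-type hearts. The 3 transgenic values were lower without overlap, and the difference of -0.19 ± 0.07 (SE) did not pass (limma adjusted p = 0.277). Adam17 had 9.03, 9.09 and 9.09 in the transgenic hearts and 9.13, 9.15 and 9.19 in the wild-type hearts, also without overlap, with a difference of -0.09 (95% interval -0.21 to 0.04). Adam8, a sheddase of leukocytes, stood at 6.87, 6.65 and 6.85 in the transgenic hearts and at 6.62, 6.62 and 6.50 in the wild-type hearts, a difference of 0.21 ± 0.08 (SE) that did not pass (limma adjusted p = 0.264). Adam12, which sheds heparin-binding EGF-like growth factor, differed by 0.05, with a 95% interval of -0.10 to 0.19. Its row is dim, with a mean of 6.32 at about the olfactory 95th percentile, so a change in it may not show.

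Adam11, Adam22 and Adam23 are ADAMs without known protease activity, best known as adhesion and receptor proteins of nerve cells. All 3 were higher in the transgenic hearts without overlap, as were 7.79% of all genes, and none passed. Adam23 had 7.40, 7.30 and 7.34 in the transgenic hearts, against 6.92, 7.26 and 6.85 in the wild-type hearts (difference 0.34 ± 0.10 SE, limma adjusted p = 0.202). Wild-type replicate 2 lay close below the lowest transgenic heart. Adam22 differed by 0.30 ± 0.09 and Adam11 by 0.24 ± 0.07 (SE), with limma adjusted p of 0.202 and 0.195. The row of Adam22 is among the dimmest 40%, and its wild-type mean of 6.18 lay under the olfactory 95th percentile of 6.32. The remaining 22 ADAMs, mostly genes of testis and epididymis, had 20 rows at or below the olfactory 95th percentile. Their median difference was 0.04, where that of all genes not above this percentile was 0.03. Adam7, an epididymis gene in this class, had an unadjusted p of 0.0193 at a mean log2 value of 4.60, under the olfactory median. Several of the 22 are near-identical copies of one another, so their rows may share signal.

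**Figure D4:**
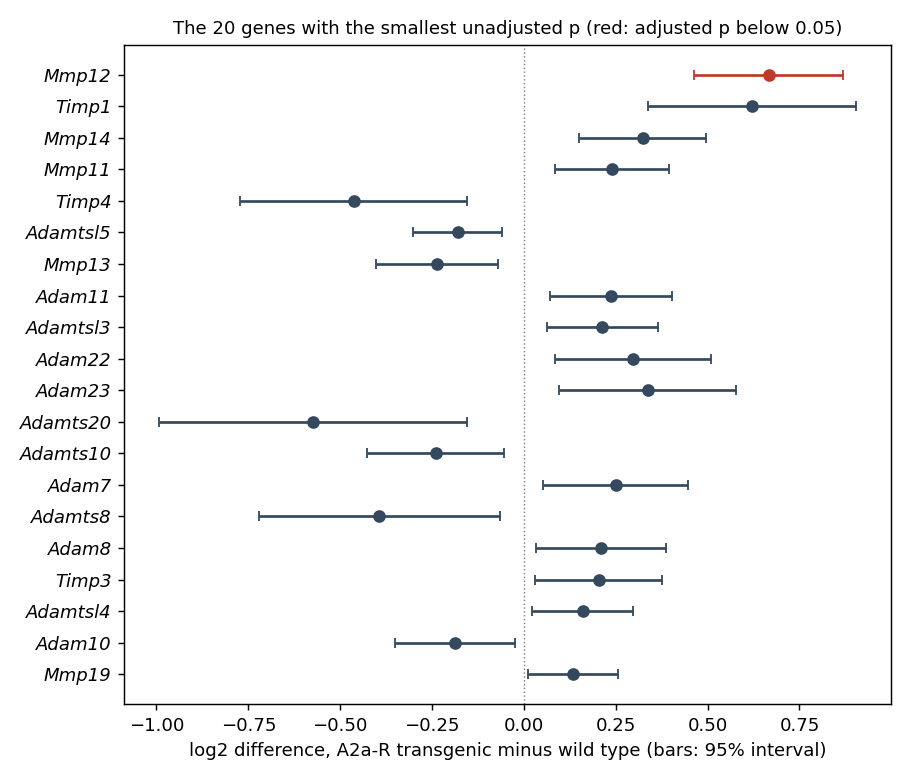
Log2 difference (A2a-R transgenic minus wild type) with its 95% interval for the 20 genes with the smallest unadjusted p, ordered from the smallest at the top. Mmp12, in red, has an adjusted p below 0.05, and the others do not pass although their intervals leave out 0.

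ADAMTS hyalectanases cut versican and aggrecan, the large proteoglycans of the matrix, and 6 of their 7 measured genes were lower in the transgenic hearts, with a median of -0.24 and 0 calls in limma (3 at an unadjusted p below 0.05). Most genes on the array were lower too, 10653 of all 19938 and 7908 of the 12829 above the olfactory 95th percentile. Of the 7109 genes not above it most were higher instead, 4273 against 2745 lower. Counts of lower or higher genes here and in the lists below are to be read against these. Adamts20 had 6.25, 5.86 and 6.27 in the transgenic hearts, against 7.12, 6.48 and 6.50 in the wild-type hearts. Wild-type replicate 1 was the highest of the 6 hearts. The difference of -0.57 ± 0.18 (SE) did not pass (limma adjusted p = 0.207), and without that heart it was -0.36. The row of Adamts20 is among the dimmest 40%, and its transgenic mean of 6.13 lay under the olfactory 95th percentile of 6.32. Adamts8 differed by -0.39 ± 0.14 (SE), with overlapping groups and a dim row. Adamts1, an induced hyalectanase that also restrains vessel growth, had 8.69, 8.42 and 9.10 in the transgenic hearts and 9.25, 9.22 and 8.90 in the wild-type hearts. Transgenic replicate 3 lay above wild-type replicate 3, and the difference of -0.39 ± 0.17 (SE) did not pass (limma adjusted p = 0.337); it was -0.23 without transgenic replicate 2. The aggrecanases Adamts4 and Adamts5 differed by 0.08 and -0.06, with 95% intervals of -0.22 to 0.38 and -0.19 to 0.07. The mean of Adamts4, 6.225, lay under the olfactory 95th percentile, so a change in it may not show. Adamts9 differed by -0.05, with an interval of -0.27 to 0.16.

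Outside the hyalectanases, Adamts10, which is known for its part in fibrillin microfibrils, had 8.28, 8.29 and 8.35 in the transgenic hearts, against 8.72, 8.46 and 8.46 in the wild-type hearts. The groups were apart and the difference of -0.24 ± 0.08 (SE) did not pass (limma adjusted p = 0.233); it was -0.15 without wild-type replicate 1. Among the 5 ADAMTS-like genes, whose products bind matrix and microfibrils, Adamtsl5 was lower and Adamtsl3 and Adamtsl4 higher without overlap. Adamtsl5 had 10.48, 10.46 and 10.47 in the transgenic hearts, against 10.63, 10.64 and 10.68 in the wild-type hearts. Both groups were tight, with SDs of 0.01 and 0.03, and the difference of -0.18 ± 0.05 (SE) had a limma adjusted p of 0.177. Adamtsl3 differed by 0.21 ± 0.07 and Adamtsl4 by 0.16 ± 0.06 (SE), with limma adjusted p of 0.197 and 0.272.

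The 4 TIMPs, all brighter than the olfactory 95th percentile, differed in opposite directions; 0 passed in limma and 3 had an unadjusted p below 0.05. Timp1, the inducible inhibitor that rises in inflamed and scarring tissue, had 7.62, 7.86 and 7.83 in the transgenic hearts, against 7.42, 7.08 and 6.95 in the wild-type hearts. The groups did not overlap, and wild-type replicate 1 came closest to the transgenic range. The difference of 0.62 ± 0.12 (SE), or 1.54-fold, had a 95% interval of 0.34 to 0.90 and a limma adjusted p of 0.0705. Under the 12 alternatives the limma adjusted p ran from 0.0177 to 0.224 and was below the threshold in 5, among them arrays centred on their medians (0.0437) and the fit without wild-type replicate 1 (0.0337). Timp1 lies within the span of Syn1, a gene of nerve terminals, in RefSeq, and the row of Syn1 differed by -0.09 ± 0.05 (SE).

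Timp4, the inhibitor known for its expression in heart muscle in particular, was the 1 lower TIMP. Its values were 8.04, 8.13 and 7.91 in the transgenic hearts, against 8.19, 8.52 and 8.76 in the wild-type hearts, which were the more spread. The difference of -0.46 ± 0.13 (SE), or 1.38-fold lower, had a 95% interval of -0.77 to -0.15 and did not pass (limma adjusted p = 0.175, and 0.0746 to 0.362 with any 1 heart left out). Timp3, which is bound to the matrix and blocks Adam17 as well as MMPs, had 11.44, 11.48 and 11.25 in the transgenic hearts, against 11.12, 11.22 and 11.22 in the wild-type hearts. These groups only just failed to overlap, and the difference was 0.20 ± 0.08 (SE, limma adjusted p = 0.269). Timp2 had 10.40, 10.35 and 10.33 in the transgenic hearts and 10.40, 10.15 and 10.08 in the wild-type hearts, a difference of 0.15 with an interval of -0.05 to 0.35.

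Of 94 measured genes in 6 lists around these enzymes, 1 rose and 1 fell, where 0.993% of all genes passed in limma in either direction. At an unadjusted p below 0.05 the background is 14.6% of all genes, and the counts per list below are to be read against it. Hbegf, the heparin-binding EGF-like growth factor that ADAMs release from the membrane, had 8.96, 8.68 and 8.95 in the transgenic hearts, against 10.01, 9.72 and 9.61 in the wild-type hearts. It fell by 0.92 ± 0.12 (SE), or 1.89-fold, with a limma adjusted p of 0.0125 (0.0594 without wild-type replicate 2, and 0.0019 to 0.0594 over 12 alternatives). It was 1 of 23 genes of ADAM substrates and shed ligands, of which the other 22 did not pass and whose median was 0.00; 4 of the 23, all lower, had an unadjusted p below 0.05. Thbs2, thrombospondin-2, a matrix protein that takes part in clearing MMPs, had 9.01, 8.99 and 8.90 in the transgenic hearts, against 8.62, 8.57 and 8.59 in the wild-type hearts. It rose by 0.37 ± 0.06 (SE, limma adjusted p = 0.0278), 1 of 24 matrix substrates, whose median was -0.09. In that list 7 genes had an unadjusted p below 0.05, 2 higher and 5 lower. Beside Thbs2 the higher one was Tnc, whose groups did not overlap. Its difference of 0.47 ± 0.10 (SE) did not pass (limma adjusted p = 0.0864). Among the lower ones Thbs1, thrombospondin-1, had 8.38, 8.26 and 8.79 in the transgenic hearts, against 9.13, 8.96 and 9.08 in the wild-type hearts, without overlap, and its difference of -0.58 ± 0.13 (SE) did not pass (limma adjusted p = 0.0957). The Thbs2 call was lost with each heart left out in turn, at a limma adjusted p of 0.0581 to 0.125.

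The other lists held no call in limma. Among 20 genes that activate, block or clear MMPs, 14 were lower and 3 had an unadjusted p below 0.05. Cd44, a hyaluronan receptor that holds Mmp9 at the cell surface, differed by 0.37 ± 0.08 (SE, limma adjusted p = 0.092) and the integrin subunit Itgav by -0.20 ± 0.07 (0.227). Of 9 partners of Adam10 and Adam17, 7 were lower and 2 had an unadjusted p below 0.05. These were Rhbdf1, an iRhom that carries Adam17 to the surface, at -0.20 ± 0.06 (SE), and the tetraspanin Tspan5, which binds Adam10, at -0.22 ± 0.08. Of 13 microfibril genes, Ltbp4 stood at -0.18 ± 0.06 and Fbln1 at 0.27 ± 0.10 (SE), the 2 with an unadjusted p below 0.05. Of 7 astacin proteases and procollagen enhancers, 1 had an unadjusted p below 0.05: Tll2, a tolloid-like protease, with 6.53, 6.29 and 6.51 in the transgenic hearts, against 6.79, 7.0 and 7.16 in the wild-type hearts. Its difference of -0.54 ± 0.11 (SE) had a limma adjusted p of 0.0688, and Pcolce2 in the same list stood at -0.15 ± 0.10.

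Most macrophage and monocyte markers lay higher in the transgenic group, as Mmp12 did. The order of hearts within the group differed. Mmp12 was highest in transgenic replicate 3 (6.53) and the marker mean in transgenic replicate 2 (8.33). The marker list was chosen with earlier results of these data known. Of 15 macrophage and monocyte markers measured, 14 were higher, 12 without overlap, where the groups of 20.2% of all genes did not overlap in either direction. Lgals3 and Lyz1 rose, and 13 did not pass in limma. At an unadjusted p below 0.05 there were 11, all higher, where the background is 14.6% of all genes. The mean log2 value over the 15 was 8.25 to 8.33 in the transgenic hearts, against 7.86 to 8.01 in the wild-type hearts. Cd68, a lysosomal marker of macrophages, stood at 0.62 and Adgre1, a macrophage surface receptor, at 0.25. The mean over the 8 smooth muscle and pericyte markers was 9.21 to 9.26 in the transgenic hearts, against 9.08 to 9.16 in the wild-type hearts. In this list Acta2 alone stood at 0.73, and the other 7 genes lay between -0.07 (Cnn1) and 0.10 (Pdgfrb). Of the 8 genes, 4 were lower, and the median difference was 0.02. The part of either group of cells in the differences of Mmp12 and Timp1 was not tested. Markers of neutrophils, which store Mmp8 and Mmp9, had 0 of 11 rows above the olfactory 95th percentile, 0 calls in limma and 0 at an unadjusted p below 0.05. Mean levels over the 10 fibroblast markers were 9.74 in each transgenic heart and 9.61 to 9.89 in the wild-type hearts, with 0 calls and 0 at an unadjusted p below 0.05. All 9 cardiomyocyte markers were bright, with a mean of 13.44 to 13.49 in the transgenic hearts and 13.43 to 13.48 in the wild-type hearts. They held 0 calls in limma and 2 at an unadjusted p below 0.05, 1 higher and 1 lower. Of the other marker lists, Nppa fell by 1.18 (limma adjusted p = 0.0456) among 5 atrial genes and Acta2 rose by 0.73 (0.0106) among 8 smooth muscle and pericyte genes, while 8 endothelial, 9 lymphoid and 8 male germ cell genes gave 0 calls, with 1, 2 and 0 at an unadjusted p below 0.05.

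**Figure D5:**
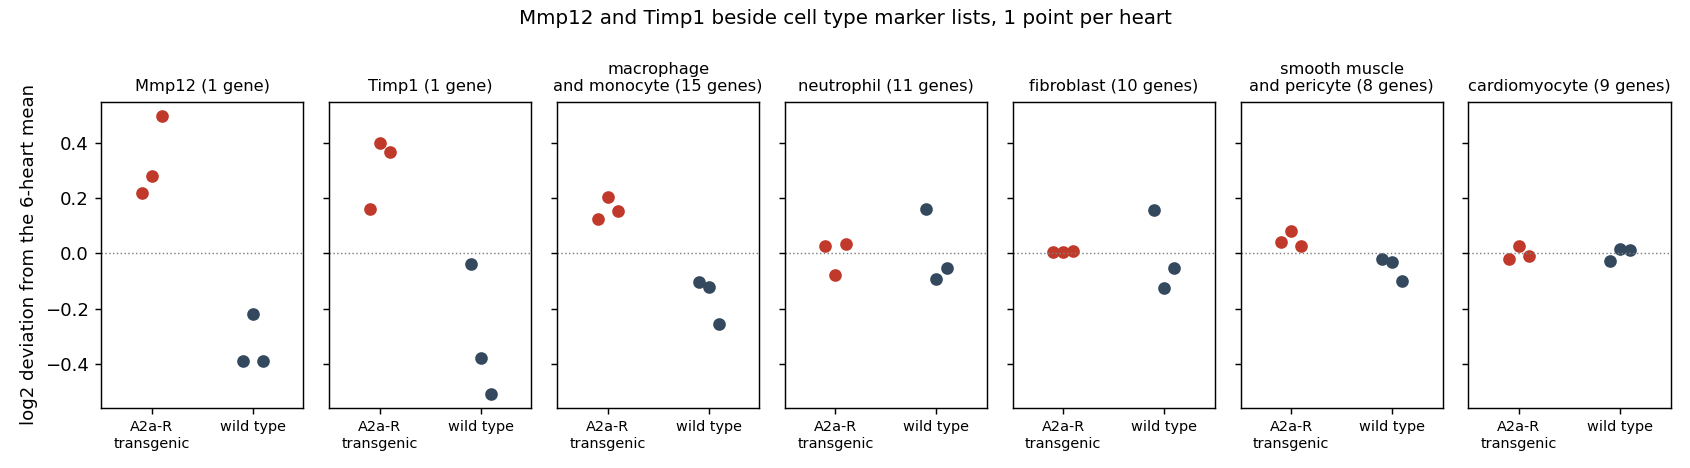
Deviation of each heart from the 6-heart mean, in log2 units, for Mmp12, Timp1 and the mean of 5 cell type marker lists, 1 point per heart. The macrophage and monocyte list separates the genotypes as Mmp12 and Timp1 do. The smooth muscle and pericyte list does so over a narrower span. In it Acta2 differed by 0.73, and the other 7 genes lay between -0.07 and 0.10. The neutrophil, fibroblast and cardiomyocyte lists overlap.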

How the data were processed

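RNA from 6 hearts, 3 A2a-R transgenic and 3 wild type, was hybridised to 1 Affymetrix Mouse Gene 1.0 ST array each. The deposited values are on a log2 scale; the authors made them with RMA and Partek, per the submitters' processing notes, with settings and versions not given in the sources used here. RMA corrects background, equalises the distribution of arrays and summarises probes, so small shifts of a whole array may not be visible. Array means were 7.03 to 7.06 log2 units and medians 6.83 to 6.89. The distributions of the deposited values were not fully equal. Their SD was 2.052 to 2.066 in the transgenic arrays and 2.083 to 2.099 in the wild-type arrays. The part of this narrower spread in the directions of dim and bright rows was not tested.

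Of 28853 rows, 21789 carried exactly 1 gene symbol in the platform annotation; 1621 with several and 5443 with none were left out. Transgenic minus wild type was tested with limma 3.58.1 in R 4.3.3 (lmFit and eBayes, default prior, 4.1 prior degrees of freedom, all 6 arrays, no covariate), with Benjamini-Hochberg adjustment over these rows and a threshold of 0.05. The median SE was 0.0731, a precision set by having 3 arrays a group. The p-values set the difference of the groups against the spread between the 3 mice of a group, moderated by the spread over all rows. The fit was tested on simulated data. Tables and figures were made with Python 3.11.15, pandas 2.3.3 and matplotlib 3.10.9. Promoter sequences came from RefSeq (GRCm38.p6). Protein features were not analysed here.

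The genes named are those that passed, the 20 with the smallest unadjusted p, the 4 TIMPs, members often studied in heart remodelling, the 3 with the highest mean, and per pathway list the called genes or the 2 with the smallest p. Other neighbours of Mmp12 on chromosome 9, Syn1, Thbs1, Tnc, Adamts3, Adamts17, Adamtsl1 and single cell type markers were named after their values were seen. Members and lists were chosen with earlier results of these data known. Alternatives were a replicate block, further quantile normalization, median centring, a trended and robust prior, removal of the dimmest 40% of rows, array weights, each array left out, a threshold of 0.10, and other rules for genes with several rows. Deviations of arrays with the same replicate number correlated at 0.155, -0.011 and -0.104, so the numbers were not taken to pair hearts. Replicate numbers are those of the sample titles; the sample descriptions number the wild-type hearts 3 to 5.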

Additional observations from a re-analysis of the deposited data

How the results depend on the processing

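Against 1 metalloproteinase, ADAM, ADAMTS or TIMP gene called, a fit with the replicate number as a block called 0 (Mmp12 at a limma adjusted p of 0.0536). Median centring, array weights and a threshold of 0.10 called 2 (Mmp12 and Timp1), leaving out the dimmest 40% of rows 2 (Mmp14 and Timp1, since the row of Mmp12 is not in that fit), and the trended and robust prior 3 (Mmp12, Mmp14 and Timp1). Leaving out each heart gave 0 to 1: Timp1 in place of Mmp12 without wild-type replicate 1, and 0 without wild-type replicate 3. Over the whole table, 209 rows (113 higher and 96 lower) became 97 with the replicate block, 493 (184 and 309) without dim rows, 579 (240 and 339) with the trended prior, 476 at a threshold of 0.10, 276 (129 and 147) with median centring, and 84 to 147 with a heart left out. The 2 pathway genes called became 1 with the block (Hbegf; Thbs2 at 0.0848), 5 without dim rows, 6 with the trended prior, 4 with array weights, 6 at a threshold of 0.10, and 0 to 2 with a heart left out. Further quantile normalization gave 1 gene of the families and 2 of the pathway lists. Of the 3 called genes, Mmp12 lost its call in 3 of 11 alternatives, Hbegf in 1 of 12 and Thbs2 in 7 of 12; over all 41 named genes, 38 of them not called, 453 of 480 values kept their direction and side of the threshold. Signs turned in Adamts4 without transgenic replicate 1 (-0.0283, with a range of -0.0283 to 0.2417) and in Adamts9 without wild-type replicate 3 (0.0233, with a range of -0.1567 to 0.0233). The cause was not tested. Dim rows limit 41 of the 83 genes, whose mean did not exceed the 95th percentile of the olfactory receptor rows.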

Other observations

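Adamts3, a procollagen N-proteinase, was covered by 16 rows, and all 16 were higher in the transgenic hearts, by 0.03 to 0.38 with a median of 0.15. In limma 0 of these rows passed, 4 had an unadjusted p below 0.05, and 4 had groups without overlap. The rows belong to 1 gene in the same 6 hearts and are not independent. In most of them wild-type replicate 1 was the lowest wild-type heart. It stood at 7.60 in the row used, against 7.90 and 7.75 in wild-type replicates 2 and 3. In another row it stood at 5.78, against 6.71 and 6.59. The part of that heart in the direction of the Adamts3 rows was not tested. Adamts9 had 6 rows, all lower (-0.22 to -0.05), with 0 passing in limma and 0 at an unadjusted p below 0.05. Of the 5 rows of Adamts17, 4 were lower and 1 higher, and both rows of Adamtsl1 were lower.

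Wild-type replicate 1 alone held the highest value in 28 of the 83 genes (33.7%), against 19.7% of all genes, counting a gene only where 1 heart was highest. The mean of the matrix substrate list was also highest in that heart, at 9.27, with 8.97 to 9.04 in the transgenic hearts and 8.97 and 9.02 in the other wild-type hearts. The part of that heart in the differences of the families was not tested beyond the fits that leave it out.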
